A study of Homo sapiens with 8 samples.

Results

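The chromatin around SOX11 was followed in 8 ATAC-seq peak lists from U2OS cells, a human osteosarcoma line. SOX11 (ENSG00000176887.7) is a gene of 1 exon on the plus strand of chromosome 2, at chr2:5692384-5701385 in the human build hg38. All distinct intervals of the 8 lists within 500 kb of its annotated transcription start site (TSS) at position 5692384 were taken. This gave 439 of the 1440417 regions in the 8 lists, which joined into 167 of 547779 union sites, that is stretches covered by overlapping or touching regions of any list. The locus was chosen from these same lists, because it holds the site with the highest rank after UV among all sites listed after UV alone. The values of UV against no UV are therefore given as a description without a test, and only the genotype and the UV-by-genotype difference were tested.

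ATAC-seq inserts sequencing adapters into open chromatin with the transposase Tn5. The 4 groups, with 2 libraries each, were wild-type (WT) cells without UV, WT cells irradiated with UV-C at 20 J/m2 and left for 3 h, ASH1L-/- cells without UV, and ASH1L-/- cells with the same dose and recovery time. The ASH1L-/- cells carry CRISPR-made deletions in the gene of this histone methyltransferase and were grown from isolated colonies, so that a clone and its genotype cannot be told apart. Each region has a fold enrichment, the pileup of reads at its summit relative to the local background of the same library, and a percentile of that fold enrichment within its own list. The lists held 158198 to 220783 regions. The mean pileup over the genome, which measures depth, was 2.10 and 1.74 in WT without UV, 2.53 and 2.67 in WT after UV, 5.87 and 1.39 in ASH1L-/- without UV, and 2.45 and 2.81 in ASH1L-/- after UV. The deepest and the shallowest library thus belonged to the same group. Of genes that mark cell lineages, 4 of 6 mesenchymal, 3 of 3 epithelial, 2 of 3 neuronal and 0 of 3 haematopoietic genes had a region within 1 kb of their TSS in all 8 lists. This was so for 67.6% of all protein-coding genes, and promoter regions alone were no check of the cell type.

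SOX11 belongs, with SOX4 and SOX12, to the SoxC subgroup of the SOX transcription factors, which bind DNA through a high mobility group box. It is known for its role in neural progenitors, in young neurons and in the development of other organs, and it is found at high levels in some tumours. Genes for developmental regulators often lie in regions with few other genes, where enhancers act over long distances. SOX11 had no other protein-coding TSS within 500 kb. The nearest were those of DCDC2C, 1989 kb upstream, and RSAD2, 1173 kb downstream. The other annotated genes with a TSS in the window were the lncRNA genes LINC01248, LINC01810, SILC1, ENSG00000232835, ENSG00000230090, ENSG00000242540 and ENSG00000236106, the microRNA gene MIR7158 and the processed pseudogene ENSG00000228585.

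The reference sequences around 4 summits are shown because the results below turn on these sites: the site with the highest rank after UV, the second site listed after UV alone, the nearest site shared by all lists, and the one shared site called for genotype. Each is 300 bases of hg38 on the plus strand, centred on the summit, and capitals mark matches to TGANTCA, the letters of the AP-1 motif. AP-1 is the family of FOS and JUN dimers, which cells use in responses to growth factors and stress.
UV-gained site, chr2:5798139-5798438: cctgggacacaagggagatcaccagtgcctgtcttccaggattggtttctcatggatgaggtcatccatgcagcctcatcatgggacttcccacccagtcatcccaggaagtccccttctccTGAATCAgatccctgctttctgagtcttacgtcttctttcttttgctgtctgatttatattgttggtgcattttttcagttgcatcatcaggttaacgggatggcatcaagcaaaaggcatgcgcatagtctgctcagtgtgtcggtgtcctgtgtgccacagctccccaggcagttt
Second UV-gained site, chr2:5978437-5978736: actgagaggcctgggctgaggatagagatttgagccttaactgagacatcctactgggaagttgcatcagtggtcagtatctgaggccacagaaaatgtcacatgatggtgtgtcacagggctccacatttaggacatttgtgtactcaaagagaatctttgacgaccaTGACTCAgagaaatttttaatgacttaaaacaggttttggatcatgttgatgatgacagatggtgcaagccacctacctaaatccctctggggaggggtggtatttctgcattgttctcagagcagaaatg
Neighbouring shared site, chr2:5803589-5803888: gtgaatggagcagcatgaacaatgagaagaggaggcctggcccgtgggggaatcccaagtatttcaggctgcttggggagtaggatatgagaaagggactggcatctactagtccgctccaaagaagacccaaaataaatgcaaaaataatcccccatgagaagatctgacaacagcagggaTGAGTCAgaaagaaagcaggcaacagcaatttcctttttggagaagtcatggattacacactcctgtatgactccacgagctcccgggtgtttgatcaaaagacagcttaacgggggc
Shared site called for genotype, chr2:5666698-5666997: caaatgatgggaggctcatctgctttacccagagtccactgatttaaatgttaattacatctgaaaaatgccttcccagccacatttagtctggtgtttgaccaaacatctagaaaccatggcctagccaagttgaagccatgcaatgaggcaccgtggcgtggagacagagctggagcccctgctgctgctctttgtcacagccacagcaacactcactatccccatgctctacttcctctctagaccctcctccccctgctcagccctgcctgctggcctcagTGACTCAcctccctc

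Each of the 4 windows held 1 match to TGANTCA, a palindrome apart from its middle base. In the UV-gained site it read TGAATCA and began 27 bases before the summit, at chr2:5798261-5798267. The match in the second gained site read TGACTCA and began 20 bases after its summit. In the neighbouring shared site TGAGTCA began 33 bases after the summit, and in the site called for genotype TGACTCA began 136 bases after it. The motif was not rare. It was found in 18.3% of all union sites, in 38.0% of the sites in all 8 lists and in 55.8% of the 3757 sites gained after UV genome-wide. Near SOX11 it was found in 34 of 167 sites (20.4%) and in 8 of the 13 sites in all 8 lists.

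Of the other motifs searched on both strands, a SOX motif ACAANG was found once in each of the 4 windows, against 44.5% of all union sites. The E-box CANNTG, which can share its first letters with the end of an AP-1 match, was found in the UV-gained site, in the second gained site and in the site called for genotype, against 82.9% of all union sites. The CAAT box CCAAT was found in the UV-gained site alone of the 4, against 33.5%. The CRE TGACGTCA (0.255%), the TEAD motif GGAATG (19.3%), the RUNX motif TGTGGT (24.0%) and the GC box GGGCGG (8.58%) had no match in these 4 windows. These matches describe the letters of the windows and not the binding of any factor. The 300 bases of the UV-gained site had a GC content of 50.0%, close to the median of 47.7% over all union sites.

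The SOX11 promoter had no listed region in any library. No list had a region within 1 kb of the TSS, nor within 2 kb. The nearest region upstream ended between 14855 and 18312 bases away, and the nearest region downstream began between 3258 and 3605 bases away. With no value in any list, the genotype difference and the UV-by-genotype difference of the promoter percentile were both 0 (exact permutation test, two-sided, p = 1), and these tests carry no information. Such a promoter is not unusual among protein-coding genes, of which 2353 of 19970 (11.8%) had no region within 1 kb of a TSS in any list. The other 2352 of these genes have the same empty profile as SOX11, so no gene can be named as most like it.

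The 167 sites were spread over the window, with 80 upstream and 87 downstream of the TSS. Of these, 127 lay between annotated genes and 40 within them, among which 19 were in SILC1, 14 in LINC01248 and 3 in SOX11. The outermost sites inside the window were at 488 kb upstream, in 1 list with a percentile of 45.1, and at 494 kb downstream, in all 8 lists with percentiles from 86.4 to 97.7. The first sites outside it, at 517 kb upstream and 509 kb downstream, were in 1 list each with percentiles of 16.5 and 13.7. Regions near SOX11 had median widths of 211.5 to 250 bases in the lists without UV and of 381.5 to 446.5 bases in the lists after UV. The medians of the whole lists were 242 to 291 and 356 to 444 bases, so that widths near SOX11 differed between the UV conditions as they did over the whole lists.

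The nearest open site was inside SOX11 itself, in the part annotated as its 3′ UTR. This site, chr2:5695642-5696784, had its summit 3.74 kb past the TSS and covered the TSS of the lncRNA gene ENSG00000242540, which starts within the SOX11 gene. It was listed in all 8 libraries. Its fold enrichment was 5.49 and 5.48 in WT without UV, 4.53 and 10.0 in WT after UV, 5.97 and 8.08 in ASH1L-/- without UV, and 6.37 and 6.40 in ASH1L-/- after UV. These ranges overlapped between the UV conditions and between the genotypes. A second site in the 3′ UTR, chr2:5696972-5697422, was listed in 7 libraries, and another, chr2:5697492-5697641, in 1 WT library after UV.

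**Figure D1:**
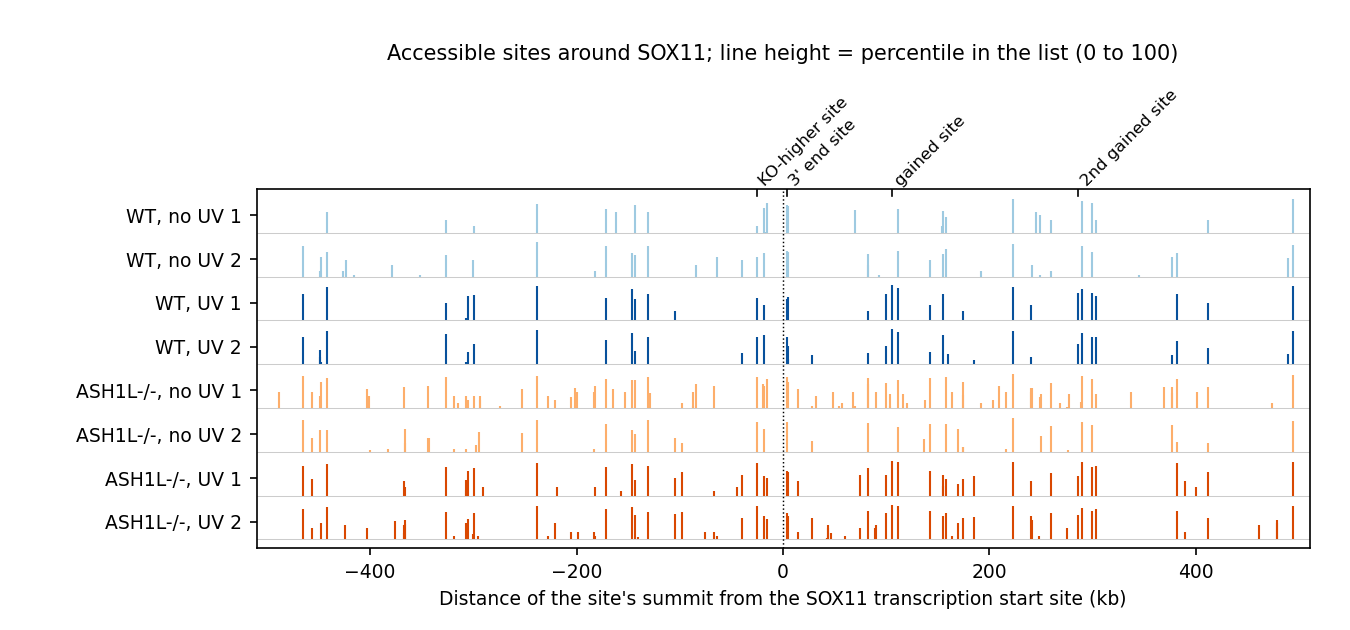
Sites within 500 kb of the SOX11 TSS in the 8 libraries, 1 row each. The x axis gives the distance of the summit from the TSS in kb, and the height of each line gives the percentile of the site's fold enrichment in that list. The gained site at 106 kb has lines of nearly full height in the 4 UV rows and none in the 4 rows without UV, no line stands at the TSS, and the ASH1L-/- rows without UV hold more lines than the WT rows without UV.

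The site with the highest rank after UV, chr2:5797976-5798622, had its summit 106 kb downstream of the SOX11 TSS. It lies between annotated genes, 14308 bases from the nearest TSS, that of LINC01810. The fold enrichment was 20.4 and 23.8 in the WT lists after UV and 20.0 and 17.8 in the ASH1L-/- lists after UV. No list without UV had a region there. Their percentiles were 99.6 and 99.7 in WT and 99.4 and 98.9 in ASH1L-/-, which put the site at ranks 671, 500, 1069 and 2197 of the lists. The 4 regions were alike in shape as well. They were 619, 619, 547 and 640 bases wide, had a single summit each, and their summits lay within 12 bases of each other.

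The depth behind these values was recovered from the lists. The summit pileup was 120 and 169 reads in WT and 89 and 104 reads in ASH1L-/- after UV. Divided by the mean pileup of the library, this was 47.4 and 63.2 in WT and 36.4 and 37.0 in ASH1L-/-. Both WT values were above both ASH1L-/- values in fold enrichment, in percentile and in relative pileup. The mean fold enrichment was 22.1 ± 2.43 in WT and 18.9 ± 1.51 in ASH1L-/- (SD, n = 2). The difference of 3.22 was not tested, since the site was chosen on these values and 2 libraries against 2 cannot reach the threshold.

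Absence from a list means that the pileup was under the limit at which the peak caller reported a region. With the local background of the UV lists scaled to each library, this limit was a pileup of 9 and 8 reads in WT and of 19 and 7 reads in ASH1L-/- without UV. The relative pileup of the site had a mean of 46.0 over the 4 UV lists of both genotypes. At that level it would have given pileups of 96.5, 80.0, 270 and 63.9 reads in the libraries without UV, in the same order. These are 9.13 to 14.2 times the limit. The mean of the ASH1L-/- lists after UV alone was 36.7, which would give lower pileups in the ASH1L-/- libraries. Accessibility below the limit was not detectable.

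The rank of the site among all gained sites is what the locus was chosen on and is given for orientation. Of 3757 union sites listed in all 4 UV lists and in none of the 4 others, it had the highest mean percentile, 99.4. The next 5 sites had their nearest protein-coding TSS at AADAT, ADO, DUX4, KPNA3 and RGS20, with mean percentiles of 97.7, 94.2, 92.4, 91.7 and 91.6. DUX4 is a gene of repeated copies, between which reads may be split. The site nearest to AADAT, chr4:170741746-170742373, had fold enrichments of 15.6, 20.8, 15.7 and 17.2 in the 4 UV lists.

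A second site was gained after UV, chr2:5978297-5978781, in an exon of SILC1. SILC1 is a lncRNA gene, known for a role in the expression of Sox11 in sensory neurons of mice, with its first TSS 240 kb downstream of SOX11. It had rank 448 among the 3757 gained sites, with a mean percentile of 65.9 in the UV lists against a median of 47.4 over all gained sites. Its fold enrichment was 7.52 and 5.93 in WT and 4.56 and 5.53 in ASH1L-/- after UV, with percentiles of 79.4 and 56.5 in WT and 57.1 and 70.7 in ASH1L-/-. The pileups of 71 and 71 in WT and of 38 and 57 in ASH1L-/- were high for these folds, since the local background was 3.09 to 4.17 times the genome mean there. At the site 106 kb from SOX11 it was 1.43 to 2.29 times the genome mean.

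**Figure D2:**
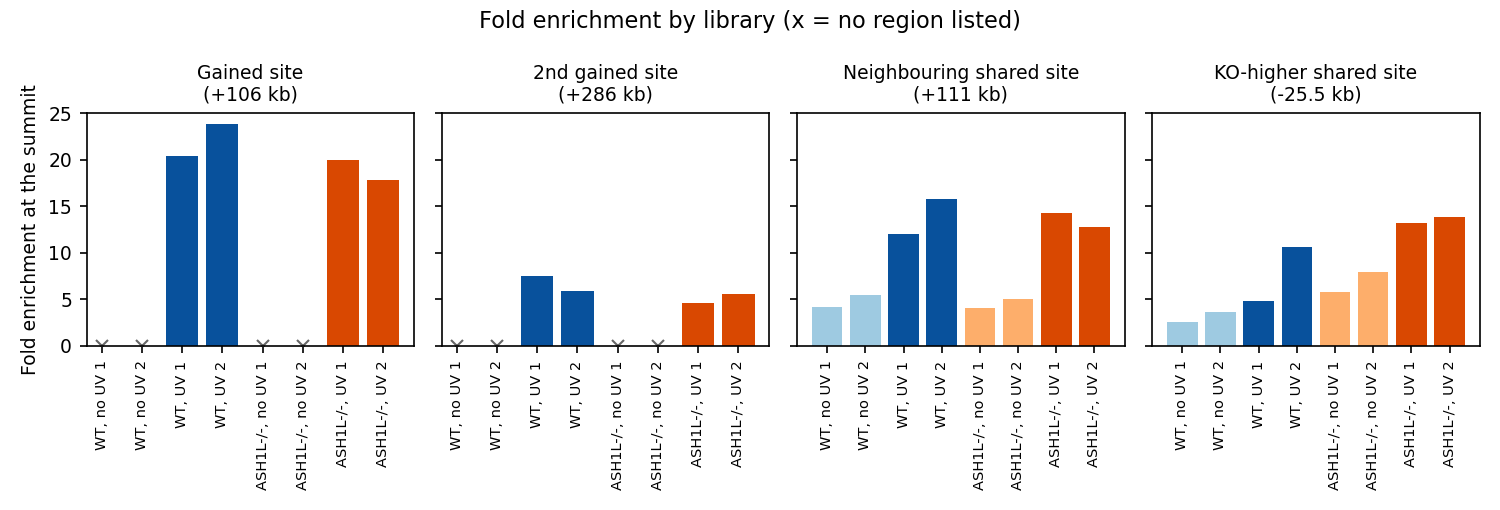
Fold enrichment at the summit of 4 sites near SOX11 in each library, with a cross where the list held no region. The first 2 sites have bars in the 4 UV libraries alone, at 17.8 to 23.8 and at 4.56 to 7.52, the neighbouring shared site is higher in the 4 UV libraries of both genotypes, and the shared site at -25.5 kb is higher in ASH1L-/- than in WT within each UV condition.

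In all, 2 of the 167 sites near SOX11 (1.20%) were gained after UV in both genotypes, against a background of 0.686% of all union sites. None was lost after UV in all lists, against a background of 0.0969%. Taken within a genotype, 6 sites were in both UV lists and in neither list without UV in WT (3.59%, against 2.62% of all union sites), and 7 in ASH1L-/- (4.19%, against 3.19%). The reverse was seen for 2 sites in WT (1.20%, against 1.18%) and for 5 in ASH1L-/- (2.99%, against 1.50%). The count of gained sites around SOX11 was that of a typical gene, since the median over the windows of 19970 protein-coding genes was 2 and the highest count was 9. The locus was thus chosen for the rank of 1 site, and the number of its gained sites was ordinary.

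The site next to the gained one was already open without UV. This site, chr2:5803401-5804405, was listed in all 8 libraries, and its summit was 5450 bases from that of the gained site. Its fold enrichment without UV was 4.19 and 5.48 in WT and 4.08 and 5.02 in ASH1L-/-, and after UV it was 12.0 and 15.8 in WT and 14.2 and 12.7 in ASH1L-/-. All 4 values after UV were above all 4 without UV, with means of 13.7 ± 1.68 and 4.69 ± 0.670 (SD, n = 4). The percentiles were also separated, with means of 93.2 ± 1.29 after UV and 72.9 ± 4.25 without UV.

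Of the 13 sites near SOX11 in all 8 lists (7.78%, against a background of 11% of all union sites), 2 had all UV percentiles above all others, against 5.99% of shared sites genome-wide. None had them all below, against 12.3%. The other separated site, chr2:5250384-5250994, lies between genes 442 kb upstream of the TSS. Its fold enrichment was 3.55 and 5.11 in WT and 5.53 and 4.18 in ASH1L-/- without UV. After UV it was 13.6 and 17.2 in WT and 12.3 and 12.3 in ASH1L-/-. Its mean percentile was 93.4 in the UV lists and 69.4 in the others, and its window held 2 matches to the AP-1 motif.

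The shared sites of highest mean percentile were open in each condition. The site at 223 kb, chr2:5914970-5916216, was the first among them with a mean percentile of 96.0. Its fold enrichment was 14.3 and 12.6 in WT and 12.8 and 12.1 in ASH1L-/- without UV, and 15.3 and 17.6 in WT and 14.4 and 14.2 in ASH1L-/- after UV. In fold enrichment, the UV-gained site was thus above this site in each of the 4 UV lists. In pileup relative to depth it was below this site in each of them. These pileups were 47.4 and 63.2 in WT and 36.4 and 37.0 in ASH1L-/- at the gained site. At the site at 223 kb they were 51.0 and 78.9 in WT and 43.3 and 41.2 in ASH1L-/-. The next were chr2:6186308-6187343 (mean percentile 93.7), chr2:5453224-5454272 (93.3) and chr2:5981285-5982110, in an intron of SILC1 (89.8). At chr2:6186308-6187343 the fold enrichment was 12.7 and 10.4 in WT and 8.30 and 8.19 in ASH1L-/- without UV, and 16.4 and 17.8 in WT and 15.1 and 13.5 in ASH1L-/- after UV. At chr2:5453224-5454272 it was 6.45 and 16.6 in WT and 7.52 and 9.71 in ASH1L-/- without UV, and 17.5 and 20.4 in WT and 12.6 and 13.2 in ASH1L-/- after UV.

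At the SILC1 site the fold enrichment was 9.28 and 8.92 in WT and 6.97 and 8.12 in ASH1L-/- without UV, and 10.9 and 14.2 in WT and 14.7 and 10.8 in ASH1L-/- after UV. The folds of this site and of chr2:6186308-6187343 did not overlap between the UV conditions, but their percentiles did. Their pileups relative to depth did not overlap either. These were 11.1 to 22.3 without UV and 39.8 to 64.0 after UV at the SILC1 site. At chr2:6186308-6187343 they were 12.9 to 26.4 and 32.3 to 51.2. Relative pileups were also separate at the site at 223 kb, at 26.1 to 37.9 without UV and 41.2 to 78.9 after UV. At chr2:5453224-5454272 they were 9.05 to 26.4 and 27.7 to 77.4. The folds of the site at 223 kb and of chr2:5453224-5454272 overlapped. The share of all shared sites with this order in fold or in relative pileup was not counted. The SILC1 site lies 221 bases from 1 of the 18 SILC1 TSSs. It was the strongest SILC1 promoter region in all 8 lists, with percentiles from 86.2 to 95.4. At the first SILC1 TSS, the site chr2:5932520-5933164 was in 5 lists, with percentiles from 19.5 to 67.9, and in no WT list without UV. LINC01248, ENSG00000230090, ENSG00000232835, ENSG00000236106 and MIR7158 had no promoter region in any list. LINC01810 and the pseudogene ENSG00000228585 had one in 1 list each.

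Between the genotypes, ASH1L-/- libraries listed more regions around SOX11. The window held 30 and 46 regions in WT without UV, 33 and 42 in WT after UV, 98 and 49 in ASH1L-/- without UV, and 57 and 84 in ASH1L-/- after UV. Per 10000 regions of the list, WT libraries had 1.68 and 2.43 without UV and 2.04 and 2.52 after UV, and ASH1L-/- libraries had 4.44 and 3.10 without UV and 3.45 and 4.22 after UV. All 4 ASH1L-/- values were above all 4 WT values, also in the shallowest library. The means were 2.17 ± 0.384 in WT and 3.80 ± 0.632 in ASH1L-/- (SD, n = 4), a ratio of 1.75. It was 1.84 without UV and 1.68 after UV.

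The genotype difference of 1.63 regions per 10000 had p = 0.0286 by two-sided exact permutation, and this design allows no smaller p. Adjusted by Benjamini-Hochberg over the 4 exact tests, the empty promoter tests included, p was 0.114, and over the 2 tests of the share alone 0.0571, so the result does not pass the correction. It was also lost without WT replicate 1 after UV (difference 1.52, exact permutation p = 0.0571). Of the windows of all protein-coding genes, 7.03% had all 4 ASH1L-/- shares above all 4 WT shares. A ratio as high as that of SOX11 was seen in 0.506% of them, and their median ratio was 0.983. The UV-by-genotype difference, the UV change in WT minus that in ASH1L-/-, was 0.163 regions per 10000 (exact permutation test, two-sided, p = 0.914). Libraries were shuffled across the genotypes, so the genotype difference widened the spread of the shuffled values. This p therefore cannot show that a UV-by-genotype difference is absent.

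**Figure D3:**
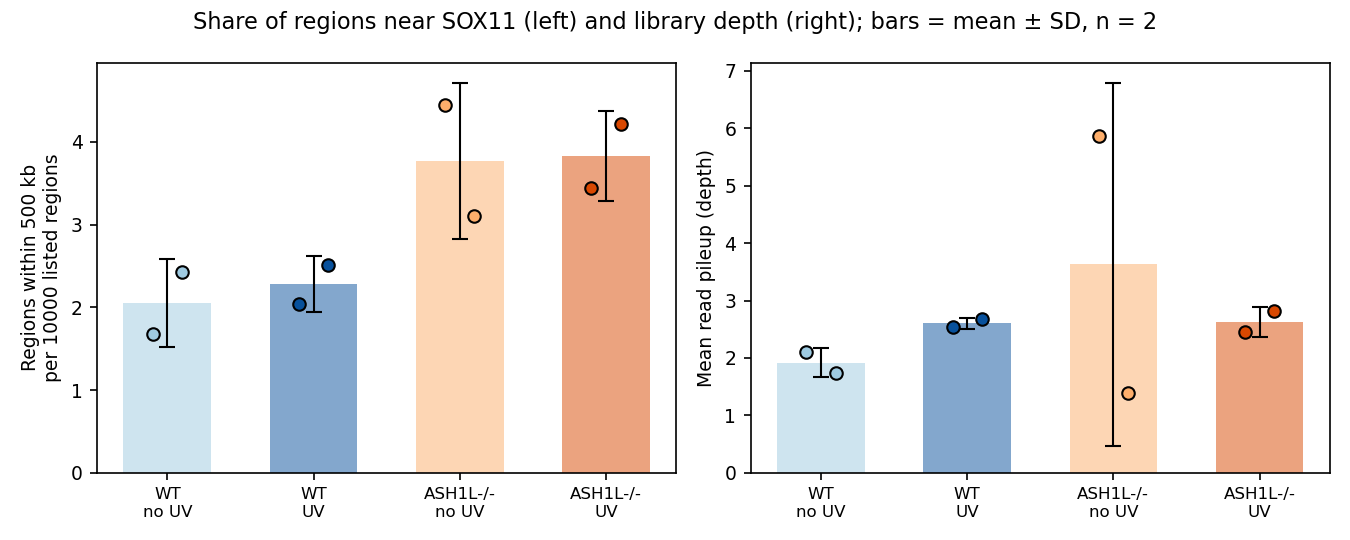
Regions within 500 kb of the SOX11 TSS per 10000 regions of the list (left) and mean read pileup over the genome (right), by group. Points are libraries and bars are means ± SD (n = 2). The 4 ASH1L-/- libraries sit between 3.10 and 4.44 regions per 10000, above the 4 WT libraries at 1.68 to 2.52, and the depth of the ASH1L-/- libraries without UV spans 1.39 to 5.87.

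The excess did not stop at the edges of the window. In bins of 1 Mb, the ratio of ASH1L-/- to WT shares was 1.57 and 1.87 in the bins centred 2 and 1 Mb upstream, 1.75 at SOX11, and 1.60, 1.55 and 1.48 in the bins centred 1, 2 and 3 Mb downstream. All ASH1L-/- values were above all WT values in these 6 bins, and in 11 of the 20 bins from -5 to 14 Mb. The ratio was between 1.07 and 1.87 over the 20 bins, and over the whole of chromosome 2 it was 1.12. The local background at the 13 shared sites was taken relative to depth. Its mean was 1.50 ± 0.410 in WT and 1.53 ± 0.237 in ASH1L-/- (SD, n = 4), and the ranges overlapped. Without UV the library means were 1.12 and 1.23 in WT and 1.24 and 1.42 in ASH1L-/-. After UV they were 1.62 and 2.02 in WT and 1.73 and 1.71 in ASH1L-/-. The medians were higher in both ASH1L-/- libraries within each UV condition. Without UV they were 1.20 and 1.33 in ASH1L-/- and at the genome mean in WT. After UV they were 1.45 and 1.43 in ASH1L-/- and 1.15 and 1.42 in WT. The lists give no copy number, and more copies of these megabases and more open chromatin cannot be told apart here.

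**Figure D4:**
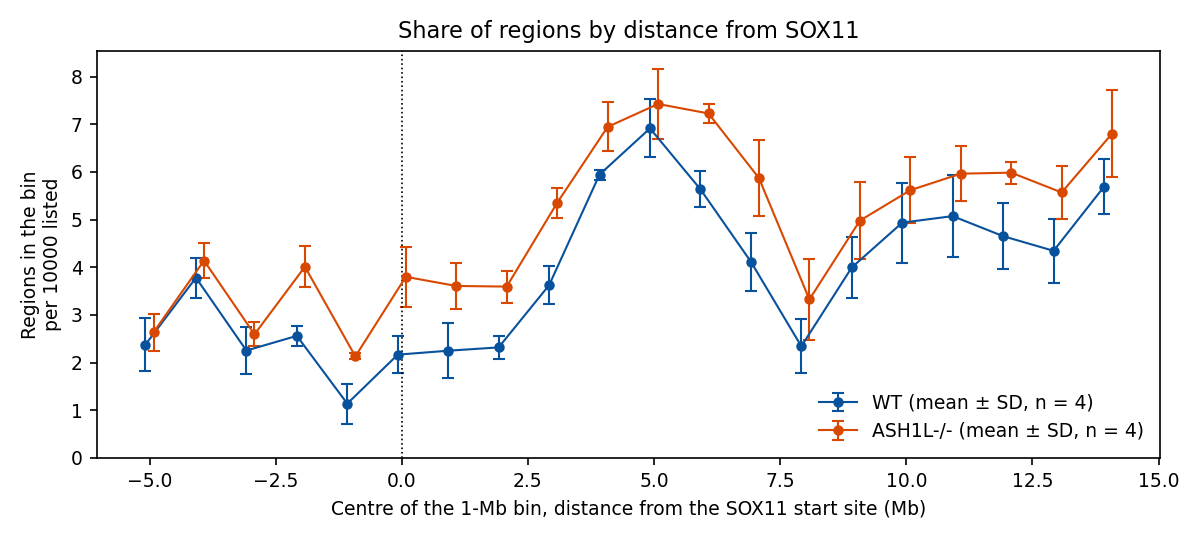
Regions per 10000 of the list in bins of 1 Mb by distance from the SOX11 TSS, as means ± SD over 4 libraries per genotype. From the bin at -2 Mb to the bin at 3 Mb the ASH1L-/- values are 1.48 to 1.87 times the WT values, and at the bins on the far left the error bars overlap.

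Of the 167 sites, 96 were in 1 list only (57.5%), near the 60.5% of all union sites. Of these, 41 and 10 were in the ASH1L-/- libraries without UV, the deepest and the shallowest library, 7 and 23 in the ASH1L-/- libraries after UV, 4 and 9 in the WT libraries without UV, and 0 and 2 in the WT libraries after UV. Altogether 101 sites had no WT list (60.5%, against 36.1% of all union sites) and 16 had no ASH1L-/- list (9.58%, against 31.3%). Sites in all 4 ASH1L-/- lists and no WT list numbered 2 (1.20%, against a background of 0.187%), and the reverse was seen for 0 sites (background 0.0769%). The part of depth in these counts was not tested.

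The sites found in ASH1L-/- lists alone had few reads without UV. At chr2:5593979-5594602, between genes 98.0 kb upstream of the TSS, the fold enrichment was 2.04 and 2.93 without UV and 5.79 and 7.08 after UV, with percentiles of 13.8 and 23.7 without UV and 67.3 and 78.6 after UV. Its pileup was 13 and 6 reads without UV and 20 and 26 reads after UV, which relative to depth was 2.22 and 4.32 against 8.17 and 9.24. The other, chr2:5235333-5235985, lies 457 kb upstream and had folds of 2.47, 3.35, 3.77 and 2.88 and percentiles from 32.6 to 47.0, with pileups of 7 to 16 reads. Its regions were joined as a chain. The region of ASH1L-/- replicate 2 after UV, chr2:5235836-5235985, overlapped neither region without UV, chr2:5235333-5235768 and chr2:5235342-5235571. The difference between UV conditions at the former is a description of 2 libraries each.

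One of the 13 shared sites was called for genotype. This site, chr2:5666503-5667318, lies 25.5 kb upstream of the SOX11 TSS, in introns of the lncRNA genes LINC01248 and ENSG00000230090, which run away from SOX11 on the minus strand. Its fold enrichment without UV was 2.58 and 3.65 in WT and 5.77 and 7.92 in ASH1L-/-, and after UV it was 4.82 and 10.6 in WT and 13.2 and 13.9 in ASH1L-/-. The fold enrichments overlapped between the genotypes over all 8 libraries, but not within a UV condition. The percentiles did not overlap at all, at 19.0, 56.0, 64.1 and 78.6 in WT and at 87.0, 85.4, 93.0 and 95.5 in ASH1L-/-. The pileup was low in WT without UV, with 7 and 9 reads, against 40 and 20 reads in ASH1L-/-.

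In a limma fit over all 60324 shared sites, the quantile-normalised log2 fold enrichment of this site was 1.24 higher in ASH1L-/- than in WT (SE 0.170, adjusted p = 0.0222). Genome-wide, 0.25% of shared sites were called higher in ASH1L-/- and 0.237% lower. The call depended on the scale and the libraries. With percentiles in place of log2 values, the lowest limma adjusted p among the 13 shared sites was 0.326. The call was also lost without any 1 of the WT libraries after UV or of the ASH1L-/- libraries. Each of these fits left 1 library in a group. With a q-value below 0.05 required in all lists, the site was no longer among those tested.

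None of the 13 sites was called for the UV-by-genotype difference, as 0% of shared sites were genome-wide by limma (0 of 60324, with 2407 at an unadjusted p below 0.05 and none of them near SOX11). At the site 25.5 kb upstream, this difference was 0.34 on the log2 scale (SE 0.340). At the site next to the gained one no genotype call was made either. Over the 13 sites, the median difference in percentile between ASH1L-/- and WT was 2.67, and over all shared sites it was 0.796. In 10 of the 13, the mean percentile was higher in ASH1L-/-. With a positive median, most shared sites of the genome had this order too, and their share was not counted.

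The other SoxC genes did have promoter regions. SOX4 had a promoter region in all 8 lists, with percentiles from 70.6 to 91.8, and SOX12 had one with percentiles from 57.5 to 89.0. Of the 19 SOX genes examined, 10 (52.6%, against 67.6% of all protein-coding genes) had a promoter region in all 8 lists (SOX2, SOX4, SOX5, SOX6, SOX9, SOX12, SOX13, SOX14, SOX15 and SOX17). Another 6 had one in some lists (SOX3, SOX8, SOX10, SOX18, SOX21 and SOX30), and SOX1, SOX7 and SOX11 had none. All UV percentiles were below all others at SOX9, the cartilage regulator, from 81.9 to 89.6 after UV against 92.6 to 94.6 without UV. SOX12 was the other such gene. Of all sites in all 8 lists, at promoters or elsewhere, 12.3% had this order. Gained sites within 500 kb were found for 15 of the 19 genes (78.9%, against 78.7% of all protein-coding genes), with 4 at most, at SOX18. The ratio of ASH1L-/- to WT regions in the window was 0.561 to 1.34 for the other 18 genes, against 1.75 for SOX11.

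**Figure D5:**
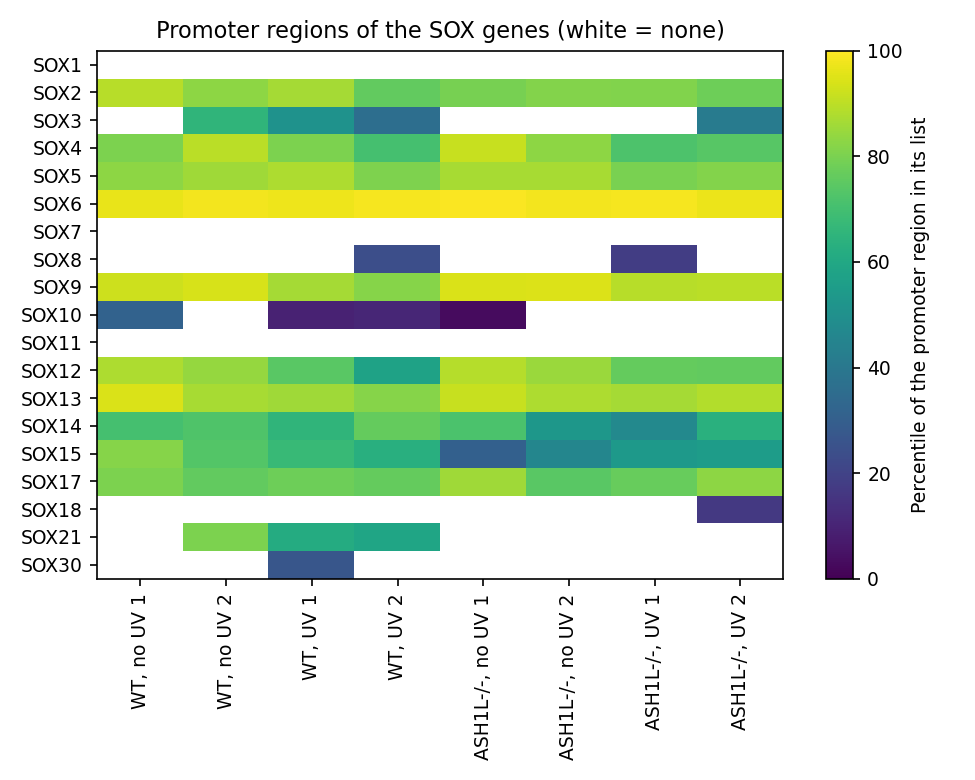
Percentile of the promoter region of 19 SOX genes in each library, white where no region lay within 1 kb of a TSS. SOX4 and SOX12, the other SoxC genes, are filled in all 8 columns, whereas the rows of SOX1, SOX7 and SOX11 are white throughout.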

How the data were processed

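Chromatin accessibility was measured in 8 U2OS libraries, prepared by Omni-ATAC. The authors trimmed reads with cutadapt 1.9.1, mapped them with Bowtie2 2.4.5 to hg38 without chromosome Y, and called peaks in each library with MACS2 2.2.7.1, without pooling. The deposited lists hold the fold enrichment (a ratio), the −log10 p-value and q-value and a score, not used here, and reach a p-value of 0.01. Members and gene lists were chosen with earlier results of these data known. Records with the same interval were merged into 1 region. Percentiles of fold enrichment were ranked within a list. Summit pileups, and the mean pileup over the genome as a measure of depth, were solved from fold and p-value. Totals of sequenced reads were not derived. Genotype contrasts used exact permutation over libraries and, for shared sites, limma 3.58.1 (R 4.3.3) with Benjamini-Hochberg adjustment. Genes came from GENCODE 44. Functions were tested on simulated data. Named sites were the promoter and gained sites, sites separating UV or genotype, the 5 highest shared sites and the next 5 gained sites. Settings varied were the q-value, window, promoter width, overlap and scale, and each library was left out. Replicates are biological according to the titles.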

Additional observations from a re-analysis of the deposited data

How the results depend on the processing

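The genotype difference in the share of regions near SOX11 (1.63 per 10000) was positive in all fits, at 1.30 to 1.97 with 1 library left out. With the replicate number as a block it was 1.63 with an exact permutation p of 0.0556, the smallest possible with the block. The labels tie same-numbered libraries by their number alone. Correlations of same-numbered deviations between groups were -0.13 to 0.16, which cannot tell whether these libraries shared a batch. The block called 102 sites higher and 102 lower in limma, against 151 and 143. The UV-by-genotype difference, never called, changed sign with a q-value below 0.05 (-0.0123), a q-value of 0.01 or below (-0.338), a window of 250 kb (-0.184) and every record counted (-0.0679), and was -0.507 to 0.834 with 1 library left out. The promoter differences were 0 in each fit. Gained sites numbered 5 at a q-value of 0.01 or below, 1 within 250 kb, 4 where regions had to cover 50% of the site, 1 in the union of top-quartile regions, and 2 to 5 with 1 library left out, the 5 without ASH1L-/- replicate 1 without UV. Shared sites numbered 20 within 1000 kb, 5 with 50% coverage, 4 in the top quartile, and 13 to 18 with 1 library left out. Sites in ASH1L-/- lists alone numbered 1 under both q-value limits, within 250 kb, with 50% coverage, in the top quartile, and with equal numbers of regions per list (158198, an alternative chosen after seeing the data), and 1 to 4 with 1 library left out. The mean percentile of the gained site at 106 kb was 95.1 by −log10 p-value, and 99.3 to 99.5 with 1 library left out. Shared sites called for genotype fell to 0 with percentiles and with a q-value below 0.05 in all lists, and were 0 to 1 with 1 library left out. The cause of these changes was not tested. With 2 libraries per group, comparisons within a UV condition cannot reach the threshold, and sites under the listing limit are not seen.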
